A study of Arabidopsis thaliana with 119 samples.

Results

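Nitrate reduction and nitrate storage were followed through 7 genes of Arabidopsis thaliana, chosen by gene ID from the 32833 genes of the count table: NIA1 (AT1G77760), NIA2 (AT1G37130), NIR1 (AT2G15620), UPM1 (AT5G40850), CLCA (AT5G40890), NLP6 (AT1G64530) and NLP7 (AT4G24020). All 7 were found and all 7 passed the filter on low counts, so no member depends on a group in which it is high. RNA was sequenced from rosettes of 5 natural accessions, of which Col-0 is the laboratory line and the others (Bur-0, Tsu-0, Cvi-0 and Sha) are wild ones. Plants grew on unfertilised peat plugs in short days, received 1 of 4 supplies of water and nitrate during 23 days on a Phenoscope (an automated platform for watering and imaging pots), and were sampled 31 days after sowing. Drought plants (W-N+) were given 50.9 ± 4.67 ml of a 5 mM nitrate solution, about 254 µmol of nitrate. Nitrogen-deficient plants (W+N-) were given 162 ± 11.1 ml at 0.5 mM, about 81 µmol. Plants under combined stress (W-N-) were given 50.7 ± 4.1 ml at 1.5 mM, about 76.1 µmol, and control plants (W+N+) 160.4 ± 7.96 ml at 5 mM, about 802 µmol. Drought as applied thus lowered the nitrate given as well as the water, and combined stress matched nitrogen deficiency in the amount of nitrate and not in its concentration. Groups held 6 libraries each, with 5 in Bur-0 control, split evenly or nearly so between 2 codes in the titles, P3ID33 and P3ID34, whose meaning is not given in the sources used here.

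Plants take up nitrate, store part of it in the vacuole and reduce the rest. In the cytosol nitrate reductase turns nitrate into nitrite, and in the plastid nitrite reductase turns nitrite into ammonium, which then enters amino acids. Genes of both steps are classical nitrate-induced genes, and transcription factors of the NIN-like protein (NLP) family carry much of that induction.

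The 7 genes were well above the limit of detection, the lowest count of any member in any library being 62. Total counts per library ran from 9698708 to 110420763 with a median of 17998283. In 5 libraries the profile over all genes stood apart from its group (correlation with the rest of the group 0.947 to 0.974, against a median of 0.99 over all libraries). They were Tsu-0 W+N- d, Sha W+N- b, Cvi-0 W+N+ c, Col-0 W+N+ f and Bur-0 W-N- c. Tsu-0 W+N- d gave the lowest values of NIA1, NIR1, CLCA and NLP7 in nitrogen-deficient Tsu-0. Bur-0 W-N- c gave the lowest CLCA value in Bur-0 under combined stress. The tissue label was checked on leaf markers, of which 6 of 6 were detected in every library. Their summed level had a median of 67700 CPM (counts scaled to a common library size) in drought, 46000 in nitrogen deficiency, 53000 in combined stress and 72500 in the control. Of 6 root markers, PYK10 made up most of the level (means of 19 to 27.2 CPM by treatment) and EXPA7 was at 0 in 111 libraries. The summed root level never exceeded 54.6 CPM. Whether each library is a plant of its own is not stated in the labels, and the p-values therefore refer to spread among libraries, part of which may be technical. In RNA from whole rosettes, fewer cells that use a gene and less RNA per cell cannot be told apart.

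Per length of transcript, the enzymes were far more abundant than the regulators. Over all libraries NIA2 averaged 301.2 CPM per kb and NIR1 242.6, while NIA1 averaged 41.0 and UPM1 34.8. The mean was 12.1 CPM per kb for NLP7, 7.87 for CLCA and 5.95 for NLP6. NIA2, the nitrate reductase gene with the higher level, thus had several times the level of NIA1 in every group, as the ratios given further on show. Ordered by mean CPM over the 20 groups, neighbouring groups seldom stood apart: the gap to the next group exceeded the larger of the 2 SDs at 2 of 19 steps for CLCA, at 1 of 19 for NIA1, NIA2, UPM1 and NLP7, and at none for NIR1 and NLP6. For CLCA one of those steps lay below the drought and control groups, and the other within the combined stress groups. All 10 drought and control groups came first, from 35.1 to 45.4 CPM. Then came Sha and Col-0 in combined stress, with 26.1 ± 8.07 and 24.5 ± 4.58 CPM (SD, n = 6 each). The other 3 combined stress groups, at 13.4 to 18.2 CPM, led on without a step to the 5 nitrogen-deficient groups at 7.29 to 11.3 CPM. For NIA1, NIA2 and UPM1 the step set off groups of nitrogen-deficient plants at the lower end: Tsu-0 alone for NIA2, Cvi-0 and Tsu-0 for UPM1, and all but Cvi-0 for NIA1. The NIA1 step only just passed, between means of 83.59 CPM in Cvi-0 and 59.97 CPM in Col-0 with a larger SD of 23.61 CPM.

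**Figure D1:**
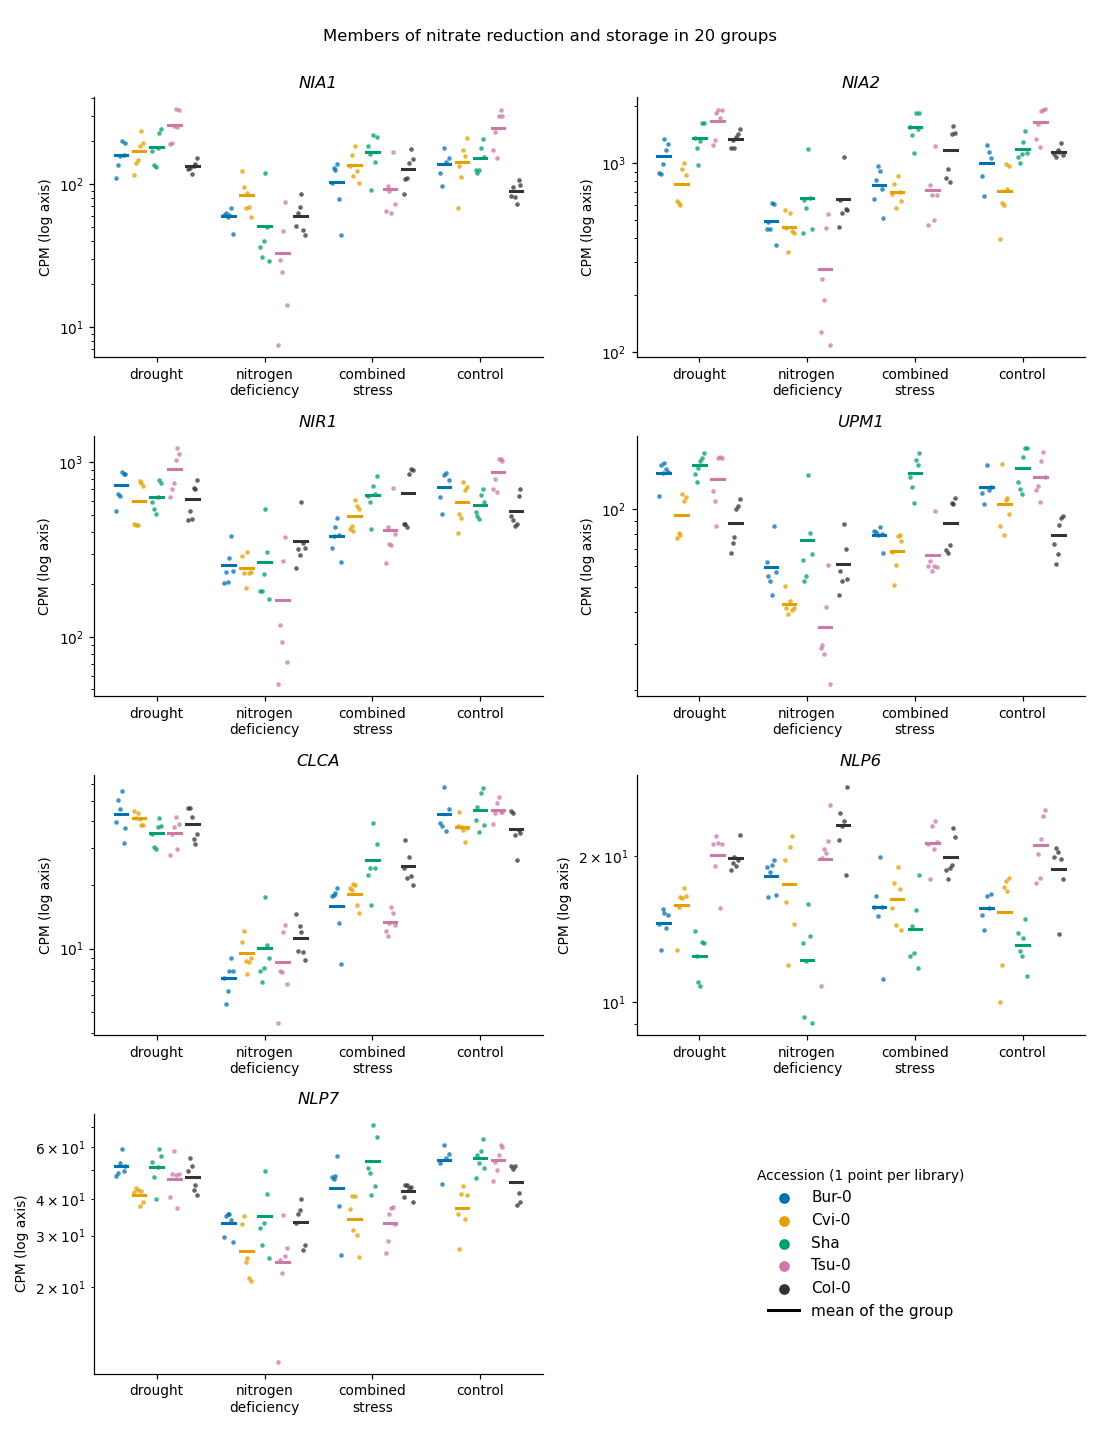
CPM of each of the 7 genes in every library (log axis), by treatment from drought to control and coloured by accession, with a line at the mean of each group. Within each accession the nitrogen-deficient mean is the lowest for every gene but NLP6, and CLCA has the clearest gap, with 4.44 to 17.6 CPM in nitrogen deficiency against 26.4 to 58.3 CPM in the control.

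Nitrogen deficiency lowered 6 of the 7 genes. Averaged over the 5 accessions with equal weight, the nitrate reductases NIA1 and NIA2, the nitrite reductase NIR1, UPM1, CLCA and NLP7 were lower in nitrogen-deficient than in control rosettes at an edgeR adjusted p below 0.05, and NLP6 did not pass. Over all 20025 genes tested, 68.0% passed in this comparison and 31.4% were lower. The members' count is to be read against that share, and the sizes of their changes say more than the count: the median log2 fold change was -1.17 over the 7 genes and 0.045 over all genes.

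NIA1 and NIA2 encode the nitrate reductases, cytosolic enzymes that carry a molybdenum cofactor, heme and FAD. In nitrogen-deficient Tsu-0, NIA1 had a lowest, median and highest level of 7.45, 26.7 and 75.3 CPM, against 153, 265 and 327 CPM in control Tsu-0. In nitrogen-deficient Bur-0 the same 3 values were 44.5, 61.2 and 68.3 CPM, and the 5 control libraries of Bur-0 had 97.7, 120.4, 143, 152 and 180 CPM. In both accessions all 6 nitrogen-deficient libraries lay below every control library. The groups overlapped in the other accessions. NIA1 had 29.2, 38.2 and 119.8 CPM in nitrogen-deficient Sha, against 119.5, 140.1 and 208 CPM in control Sha. It had 59.1, 77.4 and 123 CPM in nitrogen-deficient Cvi-0, against 67.8, 145 and 211 CPM in the control. It had 44.1, 56.8 and 85.0 CPM in nitrogen-deficient Col-0, against 73.0, 89.0 and 106 CPM in the control. In Sha a single library, replicate f, made the overlap, since the other 5 reached at most 50.5 CPM. The averaged log2 fold change of NIA1 was -1.39 ± 0.11 (SE), 2.61-fold lower in nitrogen deficiency, at an edgeR adjusted p of 8.68e-21.

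NIA2 behaved alike at a much higher level. Nitrogen-deficient Tsu-0 had 108, 217 and 538 CPM, against 1211, 1745 and 1929 CPM in control Tsu-0. Nitrogen-deficient Bur-0 had 366, 467 and 611 CPM, and the 5 Bur-0 controls had 666, 849, 1065, 1145 and 1245 CPM. Nitrogen-deficient Col-0 had 456, 568 and 1076 CPM, against 1082, 1134 and 1269 CPM in control Col-0. In these 3 accessions the groups did not overlap, although the highest nitrogen-deficient library of Col-0 came within a few CPM of the lowest control. In Cvi-0 and Sha they overlapped. The averaged log2 fold change was -1.17 ± 0.09 (SE), 2.26-fold lower, at an edgeR adjusted p of 9.26e-24.

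Reads of NIA1 and NIA2 could in principle be mistaken for each other, so their sequences were compared in the RefSeq annotation of TAIR10.1. The aligned transcripts were identical at 2223 of 3107 paired bases (71.5%). No 50-base window of either transcript occurred a second time in the genome. The 2 stretches below hold the longest run the transcripts share, 20 bases, in capitals, and are shown because any read longer than that run meets a difference. Both lie in coding sequence, NIA1 at chr1:29238722-29238781 (minus strand) and NIA2 at chr1:14159185-14159244 (plus strand).
NIA1: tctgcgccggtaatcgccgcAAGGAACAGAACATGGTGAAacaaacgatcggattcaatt
NIA2: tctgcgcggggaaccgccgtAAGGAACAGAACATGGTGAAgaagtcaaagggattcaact

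NIR1 encodes the plastid nitrite reductase, which uses reduced ferredoxin and a siroheme group. In nitrogen-deficient Tsu-0 it had 53.5, 106 and 371 CPM, against 673, 911 and 1047 CPM in control Tsu-0. Nitrogen-deficient Cvi-0 had 189.7, 234 and 305 CPM, against 393, 598 and 773 CPM in the control. Nitrogen-deficient Bur-0 had 203, 237 and 377 CPM, and the Bur-0 controls had 504, 629, 786, 844 and 863 CPM. The groups did not overlap in these 3 accessions and overlapped in Sha and Col-0. The averaged log2 fold change was -1.38 ± 0.09 (SE), 2.6-fold lower, at an edgeR adjusted p of 1.98e-28.

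UPM1 encodes the methyltransferase that opens the siroheme branch of tetrapyrrole synthesis, the source of the cofactor of nitrite and sulfite reductase. It had 21.0, 29.4 and 60.9 CPM in nitrogen-deficient Tsu-0, against 106, 128 and 165 CPM in control Tsu-0. It had 39.4, 41.5 and 50.2 CPM in nitrogen-deficient Cvi-0, against 79.2, 102 and 149 CPM in the control. Nitrogen-deficient Bur-0 had 46.5, 55.9 and 85.6 CPM, and the Bur-0 controls had 105, 115, 118.9, 122 and 148 CPM. As for NIR1, these 3 accessions had no overlap and Sha and Col-0 did. The averaged log2 fold change was -1.10 ± 0.06 (SE), 2.15-fold lower, at an edgeR adjusted p of 9.15e-32. UPM1 lies on the opposite strand to AT5G40855 over 203 bases, but that gene had no count in any library.

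CLCA encodes the exchanger of the vacuolar membrane that loads nitrate into the vacuole in return for protons. Nitrogen-deficient Bur-0 had 5.48, 7.52 and 9.07 CPM, and the Bur-0 controls had 36.0, 37.9, 39.0, 45.6 and 58.3 CPM. Nitrogen-deficient Cvi-0 had 7.60, 8.87 and 12.2 CPM, against 31.8, 37.3 and 44.2 CPM in the control. Nitrogen-deficient Sha had 6.97, 8.58 and 17.6 CPM, against 35.6, 43.6 and 57.1 CPM in the control. In these 3 accessions the highest nitrogen-deficient library was far below the lowest control library. The same held elsewhere. Nitrogen-deficient Tsu-0 had 4.44, 7.75 and 12.9 CPM, against 38.9, 44.1 and 52.0 CPM in the control. Nitrogen-deficient Col-0 had 8.80, 10.9 and 14.6 CPM, against 26.4, 35.7 and 44.8 CPM in the control. CLCA was the only member whose nitrogen-deficient and control libraries were apart in every accession. The fold changes within accessions were 5.94-fold lower in Bur-0, 4-fold in Cvi-0, 4.58-fold in Sha, 5.22-fold in Tsu-0 and 3.26-fold in Col-0. CLCA overlaps AT5G40880 on the opposite strand by 39 bases, and that neighbour stayed between 3.97 and 11.5 CPM in all libraries.

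NLP7 encodes a transcription factor and nitrate sensor that is held in the nucleus when nitrate is present, and NLP6 its closest relative. NLP7 had 28.6, 34.5 and 35.6 CPM in nitrogen-deficient Bur-0, and the Bur-0 controls had 45.1, 53.1, 54.9, 57.0 and 60.8 CPM. It had 11.2, 25.2 and 35.1 CPM in nitrogen-deficient Tsu-0, against 45.9, 54.9 and 60.8 CPM in control Tsu-0. The groups did not overlap in these 2 accessions and overlapped in Cvi-0, Sha and Col-0. The averaged log2 fold change of NLP7 was -0.69 ± 0.07 (SE), 1.61-fold lower, at an edgeR adjusted p of 1.63e-17.

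For NLP6 no fall was called, and the log2 fold change was -0.11 in Sha, -0.09 in Tsu-0 and positive in Bur-0, Cvi-0 and Col-0. It had 16.5, 18.8 and 19.7 CPM in nitrogen-deficient Bur-0, and 14.1, 15.2, 15.7, 16.6 and 16.8 CPM in the Bur-0 controls. It had 9.05, 12.7 and 15.9 CPM in nitrogen-deficient Sha, against 11.3, 13.1 and 14.8 CPM in control Sha. Nitrogen-deficient and control libraries overlapped in all 5 accessions. The averaged log2 fold change was 0.11 ± 0.06 (SE) with a 95% interval of 0.00 to 0.21, at an edgeR adjusted p of 0.0743. Without the 5 libraries that stood apart it was 0.12 at an edgeR adjusted p of 0.0214, and without replicate b the edgeR adjusted p was 0.0438. In all, NLP6 was called higher in 3 of 22 alternatives. The lowest adjusted p over the edgeR, DESeq2 and limma fits was 0.00218. In Col-0 alone NLP6 was called higher, where 20.2% of all genes were (log2 fold change 0.29 ± 0.12, edgeR adjusted p 0.0402). It had 18.3, 23.4 and 27.9 CPM there in nitrogen deficiency, against 13.8, 19.9 and 20.9 CPM in the control. This call ended in 6 of 18 alternatives, among them 4 of the fits that left out a replicate letter. The highest adjusted p over these alternatives was 0.476. The call also ended without the libraries that stood apart (0.23, edgeR adjusted p 0.0677), which is among the 6.

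As for the nitrate reductases, the RefSeq transcripts of NLP6 and NLP7 were compared to see how far their reads can be told apart. They were identical at 1925 of 2836 paired bases (67.9%), with a longest shared run of 18 bases, in capitals below. No 50-base window of either occurred a second time in the genome. Both stretches lie in coding sequence, NLP6 at chr1:23960428-23960485 (plus strand) and NLP7 at chr4:12480931-12480988 (plus strand).
NLP6: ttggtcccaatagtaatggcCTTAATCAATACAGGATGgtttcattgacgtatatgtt
NLP7: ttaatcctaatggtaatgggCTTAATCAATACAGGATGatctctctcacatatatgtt

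The size of the fall depended on the accession. Of the 35 effects of nitrogen deficiency on a member within an accession, 29 were called lower and 1 higher, while 43.1% of all such effects over all genes were called. The 6 genes other than NLP6 were lower in Bur-0 (19.7% of all genes lower), Cvi-0 (20.8%), Sha (17.7%) and Tsu-0 (22.9%). In Col-0 5 genes were lower, where 22.3% of all genes were, and NIA1 missed the threshold (-0.57 ± 0.25, edgeR adjusted p 0.0548). NIA1 was called there in 7 of 18 alternatives, among them the fit without the 5 libraries that stood apart (-0.63, edgeR adjusted p 0.0183). The Col-0 call of UPM1 ended in 7 of 18, that of NLP7 in 3, that of NIR1 in 2 and that of NIA2 in 1, with an edgeR adjusted p of up to 0.219, 0.246, 0.236 and 0.106. Over the 5 accessions 21 of the 30 calls held in all alternatives run. Tsu-0 showed the largest falls of the nitrate reduction genes, 7.59-fold for NIA1, 6.08-fold for NIA2, 5.71-fold for NIR1 and 3.82-fold for UPM1. Col-0 had the smallest for NIA1, NIR1 and UPM1, at 1.48-fold, 1.51-fold and 1.29-fold. The test of an accession-by-stress interaction, which asks whether the 5 accessions differ in the effect itself, was passed by 6 of 7 genes against 16.1% of all genes. The edgeR adjusted p was 1.7e-08 for NIA2, 2.87e-08 for UPM1, 5.97e-07 for NIA1 and 8.59e-07 for NIR1. It was 0.0406 for NLP7 and 0.0426 for CLCA. The call of NLP7 ended in 9 of 22 alternatives and that of CLCA in 10, and without the 5 libraries that stood apart the edgeR adjusted p was 0.148 for NLP7 and 0.0614 for CLCA. With the P3ID33 libraries alone the calls of NIA1, NIA2 and NIR1 ended as well (edgeR adjusted p 0.102, 0.0509 and 0.109). NLP6 had 0.159, and passed without replicate c (edgeR adjusted p 0.0442) and with the length slope of each library as a term (3.08e-05). Over the accessions the log2 fold changes ran from -2.57 to -1.71 for CLCA and from -2.92 to -0.57 for NIA1, and this difference in range was not tested.

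Libraries without overlap were counted as well. All 6 genes other than NLP6 had every nitrogen-deficient library below every control library in Bur-0 (13.1% of all genes did so) and in Tsu-0 (11.8%). NIR1, UPM1 and CLCA did so in Cvi-0 (6.29%), NIA2 and CLCA in Col-0 (7.16%) and CLCA alone in Sha (7.36%). In Cvi-0 the effect on some members differed between the codes in the titles, which was not tested and rests on few libraries per code. The P3ID34 controls there include Cvi-0 W+N+ c, which stood apart, and replicate e, with the lowest control NIA1 (67.8 CPM). NIA1 had a log2 fold change of -1.33 in the P3ID33 libraries and -0.12 in the P3ID34 libraries (edgeR adjusted p 0.00653 and 0.778), NIA2 -0.93 and -0.24, and NLP7 -0.82 and -0.17. CLCA had -2.07 and -1.93 and UPM1 -1.32 and -1.26, close to each other in both codes. All 30 called effects had the same sign in both codes.

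**Figure D2:**
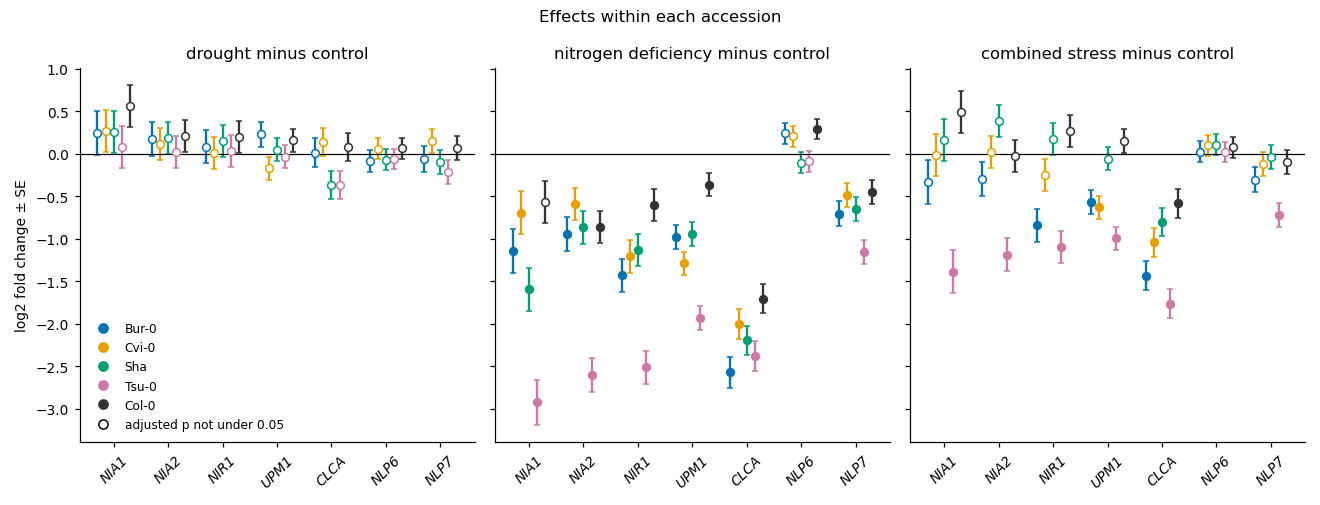
Log2 fold change against the control (± SE) of the 7 genes within each accession, for drought, nitrogen deficiency and combined stress; filled points have an edgeR adjusted p below 0.05. All drought points are open, Tsu-0 lies lowest for NIA1, NIA2, NIR1 and UPM1 in nitrogen deficiency (-2.92 for NIA1), and in combined stress CLCA is filled in all 5 accessions.

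In drought no member was called in the averaged comparison, where 23.7% of all genes were (10.6% higher and 13.1% lower), and 1 member had an unadjusted p below 0.05. That member was NIA1, with a log2 fold change of 0.28 ± 0.11 (SE, 95% interval 0.06 to 0.50) and an edgeR adjusted p of 0.0541. Its call depends on the setting, being made by DESeq2 (adjusted p 0.0470), without the libraries that stood apart (0.26, edgeR adjusted p 0.0376) and without replicate f of the Bur-0 control (edgeR adjusted p 0.0478). The other log2 fold changes were 0.14 for NIA2, 0.09 for NIR1, 0.04 for UPM1, -0.10 for CLCA, -0.02 for NLP6 and -0.03 for NLP7. Their 95% intervals reached at most 0.31 above and 0.25 below 0, and for NIA2, NIR1, UPM1, CLCA and NLP7 they exclude a fall of the size seen in nitrogen deficiency. Drought plants had been given 254 µmol of nitrate, against 802 µmol in the control. CLCA had a log2 fold change of 0.01 in Bur-0, with 31.7, 42.7 and 55.4 CPM in drought, 0.14 in Cvi-0 and 0.08 in Col-0. It had -0.37 ± 0.16 in Sha and -0.37 ± 0.16 in Tsu-0, at an edgeR adjusted p of 0.334 and 0.188 (unadjusted 0.0282 and 0.0268), and 3 drought libraries in Sha and 4 in Tsu-0 lay below all their controls. Within single accessions none of 35 effects was called, against 3.73% over all genes (3.27% in Bur-0, 1.62% in Cvi-0, 1.72% in Sha, 5.85% in Tsu-0 and 6.17% in Col-0), with 3 at an unadjusted p below 0.05. The groups were apart only for NIA1 in Col-0, with 117, 131 and 153 CPM in drought against 73.0, 89.0 and 106 CPM in the control, where 1.11% of all genes were higher without overlap. Its log2 fold change was 0.57 ± 0.25 at an edgeR adjusted p of 0.157. No member passed the test of a difference between accessions in the drought effect, which 0.619% of all genes passed.

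Combined stress lowered fewer genes and by less than nitrogen deficiency. Averaged over accessions 5 of 7 were lower, against 26.6% of all genes (57.3% in either direction). CLCA fell most, 2.18-fold (log2 fold change -1.13 ± 0.08, edgeR adjusted p 1.14e-25). UPM1 had -0.42 ± 0.06 (edgeR adjusted p 3.6e-09), NIR1 -0.35 ± 0.09 (0.000221) and NLP7 -0.26 ± 0.06 (0.000358). NIA2 had -0.22 ± 0.09 at an edgeR adjusted p of 0.0196, and this call was lost within each code (0.079 in P3ID33 and 0.191 in P3ID34) and without replicates c, d or f (0.0547, 0.072 and 0.0622). NIA1 had -0.22 ± 0.11 at an edgeR adjusted p of 0.088, and was called in the P3ID33 libraries (-0.40, edgeR adjusted p 0.0471) and not in the P3ID34 libraries (-0.04, 0.854). NLP6 had 0.06 ± 0.06 at 0.317.

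CLCA was the member called in every accession in combined stress. It had 8.48, 17.8 and 19.4 CPM in Bur-0 under combined stress, against 36.0 to 58.3 CPM in its 5 controls. It had 14.8, 19.1 and 20.2 CPM in Cvi-0 and 11.5, 13.1 and 15.8 CPM in Tsu-0 under combined stress, again with no overlap with the controls given above. In Sha, with 16.1, 23.9 and 39.3 CPM, and in Col-0, with 20, 23.0 and 32.5 CPM, the combined stress and control libraries overlapped. The folds were 2.7-fold lower in Bur-0, 2.06-fold in Cvi-0, 1.75-fold in Sha, 3.4-fold in Tsu-0 and 1.5-fold in Col-0.

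Tsu-0 was the accession in which combined stress lowered all 6 genes, where 18.4% of all genes were lower. There NIA1 had 63.2, 81.5 and 168 CPM under combined stress, against 153, 265 and 327 CPM in the control, and NIR1 263, 364 and 713 CPM against 673, 911 and 1047 CPM. The log2 fold changes were -1.39 ± 0.25 for NIA1, -1.19 ± 0.19 for NIA2, -1.10 ± 0.19 for NIR1, -0.99 ± 0.14 for UPM1 and -0.72 ± 0.14 for NLP7. In Bur-0 3 genes were lower (NIR1, UPM1 and CLCA, against 14.6% of all genes), in Cvi-0 2 (UPM1 and CLCA, against 10.2%), and in Sha and Col-0 CLCA alone (against 9.03% and 16.9%). Of these 13 calls 9 held in all alternatives run. Libraries without overlap with the control were seen for NIR1, UPM1 and CLCA in Bur-0 (9.07% of all genes), CLCA in Cvi-0 (2.30%) and UPM1, CLCA and NLP7 in Tsu-0 (11.0%), and for no member in Sha (5.14%) or Col-0 (7.43%). The 5 accessions differed in the effect of combined stress for 6 of 7 genes, against 13.5% of all genes. The edgeR adjusted p was 1.36e-05 for UPM1, 5.24e-05 for NIR1, 8.93e-05 for NIA2, 0.000404 for NIA1 and 0.000511 for CLCA, while NLP7 had 0.0467 and NLP6 0.994. The call of NLP7 ended in 12 alternatives, with an edgeR adjusted p of 0.0604 without the code term, 0.0805 and 0.146 within the codes, and 0.247 without replicate d.

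Set directly against nitrogen deficiency, which gave nearly the same amount of nitrate in a larger volume, combined stress had higher levels of 6 of 7 genes, where 19.6% of all genes were higher and 40.8% passed in either direction. The averaged log2 difference was 1.17 ± 0.11 for NIA1, 0.95 ± 0.09 for NIA2 and 1.03 ± 0.09 for NIR1. It was 0.68 ± 0.06 for UPM1, 1.04 ± 0.08 for CLCA and 0.43 ± 0.06 for NLP7, each at an edgeR adjusted p of 1.14e-08 or lower. NLP6 had -0.04 ± 0.05 (0.57). The contrast between median levels was plain in Sha, where NIA1 had 173 CPM under combined stress against 38.2 CPM in nitrogen deficiency, NIR1 648 against 206 CPM, and CLCA 23.9 against 8.58 CPM. Within accessions 26 of 35 differences were called, all higher, while 14.1% of all such differences over all genes were called in either direction. They were 5 genes in Bur-0 (3.65% of all genes higher), 4 in Cvi-0 (5.97%), 6 in Sha (9.01%), 6 in Tsu-0 (5.73%) and 5 in Col-0 (8.76%). CLCA, NIR1, NIA2 and UPM1 were called in all 5 accessions. NIA1 was called in the 4 accessions other than Cvi-0 (0.68 ± 0.25, edgeR adjusted p 0.0531). In Bur-0 the calls of NIR1, UPM1, NIA2 and NIA1 ended without the code term (edgeR adjusted p 0.256, 0.186, 0.0912 and 0.0761), as did that of NIA2 in Cvi-0 (0.0654), and all 5 ended without replicates a, b or d. NIA1 in Cvi-0 was called by DESeq2 (adjusted p 0.0443) and without the 5 libraries that stood apart (edgeR adjusted p 0.0177). NLP7 was called in Sha and Tsu-0. Without those 5 libraries its call in Tsu-0 ended (0.29, edgeR adjusted p 0.134), and it was called in Bur-0, Cvi-0 and Col-0 (0.00207, 0.0239 and 0.0309). With the P3ID33 libraries alone 14 of the 35 were called. Of the 26 calls, 12 held in all alternatives run and 14 ended in at least 1, while 7 of the other differences gained a call in at least 1.

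Set against drought, which gave the same volume at a higher concentration, combined stress had lower levels of the same 6 genes, where 20.9% of all genes were lower and 46.0% passed. CLCA had the largest difference, -1.03 ± 0.08 (2.04-fold lower, edgeR adjusted p 8.48e-23). NIA1 had -0.50 ± 0.11, UPM1 -0.46 ± 0.06, NIR1 -0.44 ± 0.08, NIA2 -0.37 ± 0.08 and NLP7 -0.22 ± 0.06, with edgeR adjusted p from 2.06e-10 for UPM1 to 0.0022 for NLP7. The call of NLP7 was lost with the P3ID33 libraries alone (edgeR adjusted p 0.0745). Within accessions 12 of 35 were lower, while 15.8% of all such differences over all genes were called in either direction. These were all 6 genes in Tsu-0 (14.4% of all genes lower), NIR1, UPM1 and CLCA in Bur-0 (10.8%), UPM1 and CLCA in Cvi-0 (3.86%) and CLCA in Col-0 (5.75%), and no gene in Sha (3.27%). UPM1 in Cvi-0 lost its call in 6 of 18 alternatives (edgeR adjusted p up to 0.217), and CLCA in Sha gained one in 4. Of the 12 calls 9 held in all alternatives run.

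The averaged effect of combined stress was smaller than the sum of the 2 single stresses. The difference, combined effect minus the sum of the drought and the nitrogen deficiency effect on the log2 scale, was positive for 6 of 7 genes, where 15.3% of all genes were positive and 30.2% passed. It was 1.15 ± 0.11 for CLCA, 0.93 ± 0.12 for NIR1, 0.89 ± 0.16 for NIA1 and 0.81 ± 0.12 for NIA2. It was 0.64 ± 0.09 for UPM1 and 0.47 ± 0.09 for NLP7, and -0.02 ± 0.08 for NLP6, with edgeR adjusted p of 1.9e-05 or lower for the 6 and 0.88 for NLP6. These contrasts share the control libraries and the combined stress libraries with those above and are not separate evidence. Combined stress differs from nitrogen deficiency and from the control in both water volume and nitrate concentration, and in those comparisons the 2 cannot be told apart. Both single stresses lowered the nitrate given, to 254 µmol in drought and 81 µmol in nitrogen deficiency. Combined stress gave 76.1 µmol, at 1.5 mM in place of 0.5 mM. The difference from the sum therefore does not isolate how water and nitrate supply act together.

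**Figure D3:**
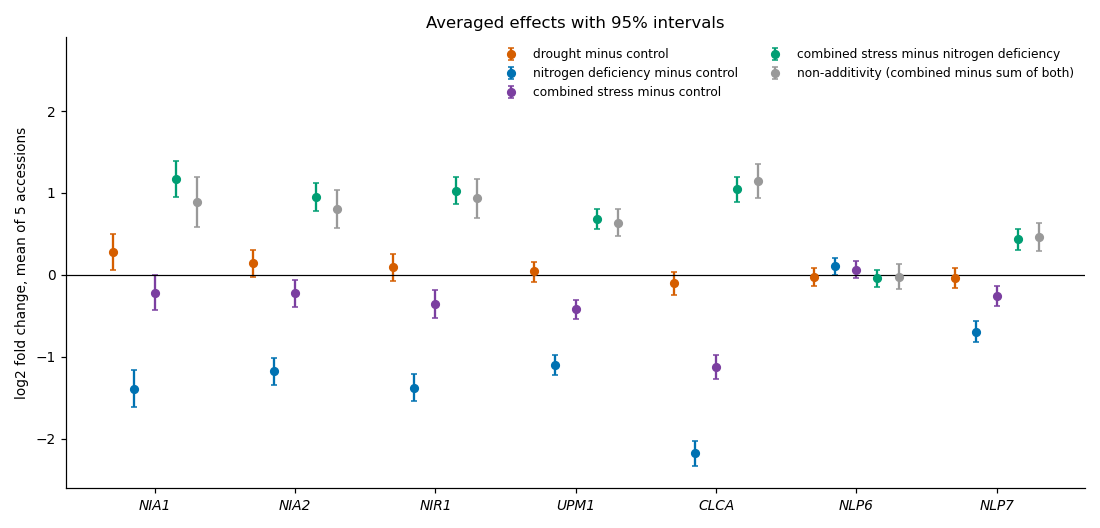
Averaged log2 fold changes over the 5 accessions with 95% intervals, for 3 stresses against the control, for combined stress minus nitrogen deficiency, and for combined stress minus the sum of the single effects. The 6 genes other than NLP6 are lowest in nitrogen deficiency (CLCA -2.17). In drought they run from -0.10 for CLCA to 0.28 for NIA1, and in combined stress they lie between their drought and nitrogen deficiency values.

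Changes between members of a pair were measured as log2 ratios per transcript length within a library, which do not depend on scaling between libraries. Of 45 such comparisons of a stress with the control within an accession, 14 passed an exact two-sided permutation test with Benjamini-Hochberg adjustment over the 45, 9 higher and 5 lower. The smallest p that 6 against 6 libraries gave was 0.00216, and 0.00433 with the 5 controls of Bur-0. The ratio of NLP6 to NLP7 rose in nitrogen deficiency in all 5 accessions. Its median was 106% in nitrogen-deficient Tsu-0 against 46.1% in the control, 80.2% in Col-0 against 48.4%, and 77.3% in Cvi-0 against 51.1%. It was 67% in nitrogen-deficient Bur-0 against 34.2% in the control, and 41.6% in Sha against 28%. In Tsu-0 NLP7 averaged 7.005 CPM per kb in nitrogen deficiency against 15.6 in the control, while NLP6 averaged 6.81 against 7.27 CPM per kb. The log2 differences ran from 0.56 in Sha to 1.10 in Tsu-0, with exact permutation p from 0.00216 to 0.00649 and adjusted p of at most 0.0225. The call ended without replicate c, d, e or f in Bur-0 and without b, c, e or f in Cvi-0 (exact permutation adjusted p 0.0549 to 0.0824), and it held without each replicate in Sha, Tsu-0 and Col-0. In combined stress the ratio rose in Tsu-0 (76.8% against 46.1%) and Bur-0 (42.5% against 34.2%), and the Bur-0 call ended without replicate c, d, e or f. Of all 14 calls of ratios, 8 held without each replicate in turn. Leaving out a letter raises the smallest p that the exact test can give, most of all in Bur-0 with its 5 controls. Calls that ended there therefore do not tell a weaker ratio from a smaller set of libraries.

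NIA1 had a median of 13.5% of the NIA2 level over all libraries. This share was lower in nitrogen-deficient Sha, at 7.42% against 12.9% in the control (log2 difference -0.81, exact permutation p 0.00216, adjusted p 0.0122). In Col-0 it was higher in drought (9.91%) and in combined stress (11%) than in the control (7.98%), by 0.36 and 0.52 on the log2 scale, each with an exact permutation p of 0.00216 and an adjusted p of 0.0122. Between accessions the control medians ran from 7.98% in Col-0 to 20.3% in Cvi-0, and the part of read mapping in this was not tested. Nitrite reductase was compared with the sum of both nitrate reductases, with a median of 68.3% over all libraries. In Bur-0 it was 62% in nitrogen deficiency and 64.8% in combined stress, against 94.6% in the control (exact permutation p 0.00433 each). In Cvi-0 it was 67.7% in nitrogen deficiency against 98.1% in the control (exact permutation p 0.00216), and in Sha 54.7% in combined stress against 63.7% (exact permutation p 0.0108, adjusted p 0.0348). The call in Sha ended without replicate b, c, d, e or f (exact permutation adjusted p 0.067 to 0.128), and both calls in Bur-0 ended without replicate c, d, e or f (0.0549 to 0.0595). In Bur-0 the higher smallest p of the smaller sets of libraries bears on these endings as well. No change of that ratio was called in Tsu-0 or Col-0.

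**Figure D4:**
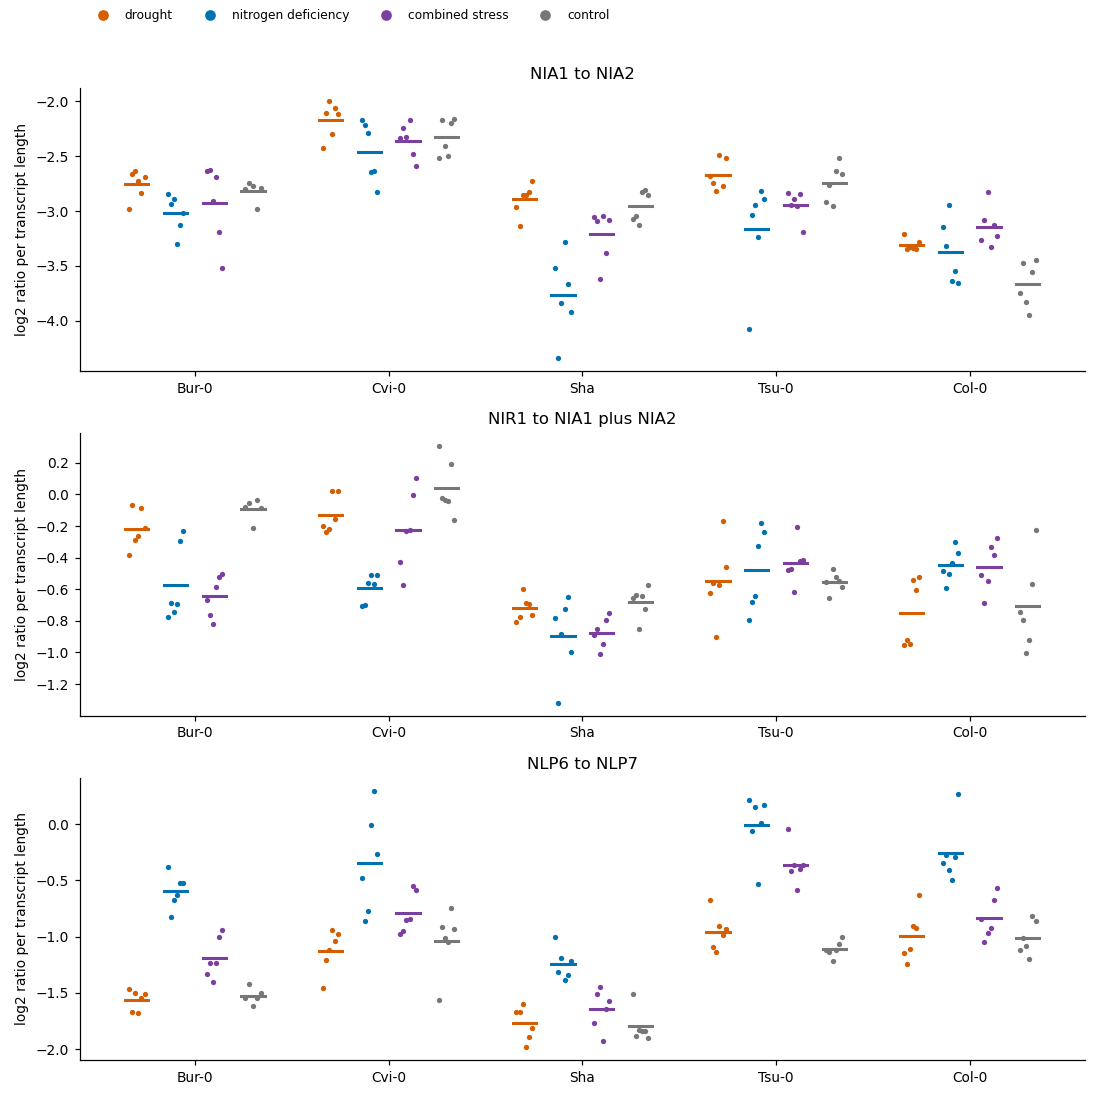
Log2 ratios per transcript length within each library, by accession and treatment, for NIA1 to NIA2, NIR1 to the sum of NIA1 and NIA2, and NLP6 to NLP7; lines are group means. The NLP6 to NLP7 ratio is highest in nitrogen deficiency in each accession, by 0.56 to 1.10 above the control, and Cvi-0 has the highest NIA1 to NIA2 ratio in the control.

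Libraries of the same group also differed from each other in these genes, and did so together. Each library's log2 CPM was set against the mean of its group and code. The SD of these deviations was 0.357 for NIA1, 0.282 for NIA2 and 0.274 for NIR1, and 0.177 to 0.209 for UPM1, CLCA, NLP6 and NLP7. Over all libraries the deviations of NIA1 and NIA2 had a Pearson r of 0.890 and a Spearman rho of 0.849. NIA1 and NIR1 had 0.904 and 0.814, and NIA2 and NIR1 0.919 and 0.813. For these 3 pairs the permutation p was 1e-05, the smallest that 100000 permutations give, and the adjusted p over 35 pairs was 3.18e-05 for r and 2.5e-05 for rho. Without the 2 libraries farthest from the median, r was 0.881, 0.890 and 0.882 in the same order of pairs. Within the codes r was 0.937 in P3ID33 and 0.789 in P3ID34 for NIA1 and NIA2, 0.921 and 0.890 for NIA1 and NIR1, and 0.942 and 0.848 for NIA2 and NIR1. A library with much NIA1 for its group therefore had much NIA2 and NIR1 as well. UPM1 followed less evenly: with NIR1 it had r = 0.740 and rho = 0.544 (permutation p 1e-05, adjusted 3.18e-05 and 2.5e-05), 0.629 without 2 libraries, but 0.890 in P3ID33 and 0.286 in P3ID34. NIA1 also had r = 0.695 with CLCA and 0.699 with NLP7. Of the clock genes outside the members, TOC1 had r = 0.610 with NIA1 and CCA1 0.029. Other pairs of genes were not compared, so these correlations are not shown to be particular to nitrate reduction.

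For NLP6 and NLP7 a like correlation moved with a technical measure. They had r = 0.713 and rho = 0.613 (permutation p 1e-05, adjusted 3.18e-05 and 2.5e-05), 0.652 without 2 libraries, and 0.720 and 0.704 within P3ID33 and P3ID34. Libraries differed in a slope of log2 level on transcript length, taken over all genes, and the deviations of NLP6 and NLP7 had r = 0.872 and 0.823 with that slope, those of NIA1 0.631 and those of UPM1 0.056. With the slope taken out, r was -0.021 for NLP6 and NLP7 and remained 0.872 for NIA1 and NIA2, 0.896 for NIA1 and NIR1 and 0.898 for NIA2 and NIR1. In a fit with the length slope as a term, all 29 called averaged effects of members kept their call. The slope was taken on deviations from group means, so on average it could not differ between groups. That fit therefore cannot show whether transcript length bears on differences between groups.

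**Figure D5:**
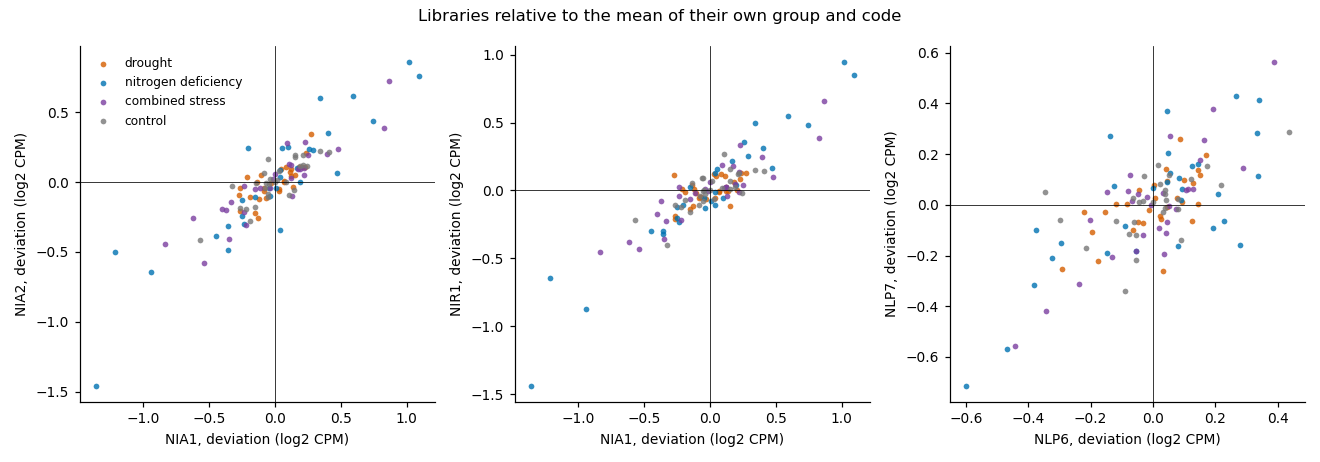
Deviation of each library from the mean of its own group and code (log2 CPM), for NIA1 against NIA2, NIA1 against NIR1 and NLP6 against NLP7, coloured by treatment. The first pair has r = 0.890, the second 0.904 and the last 0.713, and the farthest libraries of the first 2 pairs are nitrogen-deficient ones.

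Likeness to other genes was measured as the Pearson r of group mean log2 CPM, centred within each accession, over the 20 groups and 13808 genes averaging 5 CPM or more. It is a description over groups that share controls, with no test. The 3 most alike were NIA2 (0.981), NIR1 (0.974) and PPC2 (0.969) for NIA1, and NIA1, NIR1 (0.969) and SIR (0.960), the sulfite reductase gene, for NIA2. For NIR1 they were UPM1 (0.984), AT5G14060 of the aspartate kinase family (0.982) and PPC2 (0.978), a phosphoenolpyruvate carboxylase gene. For UPM1 they were ASN2 (0.988), an asparagine synthetase gene, AT5G14060 (0.987) and NIR1. The storage gene CLCA had AT1G49500 (0.991), AT3G09580 (0.990) and BGAL1 (0.989), and no member among its 3. NLP7 had AT3G56060 (0.984), LBD37 (0.981) and AT5G14060 (0.979). NLP6 had FTSH1 (0.931), AT5G04060 (0.908) and SEC10 (0.888), and its own r with NLP7 was -0.220.

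Genes around the pathway were followed through lists. The other 7 NLP genes were mostly higher where NLP7 was lower. In nitrogen deficiency 6 of 7 were higher, where 36.6% of all genes were: NLP9 (1.70 ± 0.10), NLP8 (1.34 ± 0.08), NLP3 (1.16 ± 0.09), NLP5 (1.15 ± 0.04), NLP2 (0.76 ± 0.10) and NLP4 (0.61 ± 0.07), all log2 fold changes with SE, and NLP1 had 0.11 (edgeR adjusted p 0.083). In combined stress all 7 were higher, where 30.6% of all genes were, from 0.31 for NLP1 to 1.42 for NLP3. In drought 2 were higher, NLP1 (0.15) and NLP3 (0.30), where 2120 of 20025 genes tested were. Their median was 1.15 in nitrogen deficiency, 0.69 in combined stress and 0.15 in drought. NLP7 was thus the one NLP gene called lower in nitrogen deficiency.

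The 6 other genes of the CLC family of anion channels and exchangers were called in both directions. In nitrogen deficiency, where 31.4% of all genes were lower and 36.6% higher, CLC-E of the thylakoid (-1.09 ± 0.12), CLC-B (-0.70 ± 0.08) and CLC-F (-0.08 ± 0.04) were lower, and CLC-C (0.66 ± 0.08), CLC-D (0.35 ± 0.07) and CLC-G (0.28 ± 0.05) were higher. In combined stress (26.6% of all genes lower and 30.6% higher) CLC-C, CLC-D and CLC-G were higher and CLC-E lower (-0.40 ± 0.12). In drought CLC-G alone was higher (0.16 ± 0.05), as were 10.6% of all genes. None of the other 6 fell as far as CLCA.

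Of 6 genes for the molybdenum cofactor, 2 were lower in nitrogen deficiency, CNX1 (-0.78 ± 0.04), which inserts the molybdenum, and CNX2 (-0.19 ± 0.04), and 2 were higher, CNX3 (0.30 ± 0.04) and CNX7 (0.34 ± 0.06), where 31.4% of all genes were lower and 36.6% higher. CNX1 was also lower in combined stress (-0.46 ± 0.04), and none of the 6 was called in drought, where 4737 of 20025 genes tested were. Of the route to siroheme 3 other genes were listed, and all 3 were lower in nitrogen deficiency and in combined stress: HEMA1 (-0.97 ± 0.04 and -0.45 ± 0.04), HEMA2 (-0.30 ± 0.04 and -0.10 ± 0.04), which encode the first enzyme of tetrapyrrole synthesis, and SIRB (-0.36 ± 0.04 and -0.20 ± 0.04), the ferrochelatase that completes siroheme. In combined stress 5335 of 20025 genes tested were lower. HEMA1 serves chlorophyll as well. None of the 3 was called in drought, where 4737 of 20025 genes tested were.

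Of 12 genes that supply reductant to the plastid or to nitrite reductase, 9 were lower and 1 higher in nitrogen deficiency, against 31.4% and 36.6% of all genes, with a median log2 fold change of -0.33 against 0.045 over all genes. The lowest adjusted p values belonged to AT5G41670 (-0.81 ± 0.05) and AT1G64190 (-0.61 ± 0.05), both of the 6-phosphogluconate dehydrogenase family, and G6PD3 (-1.10 ± 0.07), a glucose-6-phosphate dehydrogenase. In combined stress 7 were lower and 2 higher (26.6% and 30.6% of all genes), and in drought 1 lower and 1 higher (13.1% and 10.6%). Of 5 regulators linked to nitrate reductase, BT2 was lower in nitrogen deficiency (-2.12 ± 0.26), combined stress (-1.93 ± 0.25) and drought (-1.39 ± 0.25). Its drought effect was the only one called in that list, where 13.1% of all genes were lower in drought. The level of BT2 was low, with a mean of 0.304 CPM in drought, 0.119 in nitrogen deficiency, 0.125 in combined stress and 0.633 in the control. BT1 (1.08 ± 0.07) and HY5 (0.61 ± 0.09), a light-signalling transcription factor, were higher in nitrogen deficiency. Of 7 kinases and partners reported to act on NLP proteins or nitrate transporters, 5 were higher in nitrogen deficiency and none lower, where 36.6% of all genes were higher. Among the 5 were CPK32 (0.72 ± 0.07), CPK30 (0.32 ± 0.05) and CIPK23 (0.22 ± 0.04). Nitrate reductase genes cycle over the day, and clock genes also moved: of 9, 6 were higher and 1 lower in nitrogen deficiency (36.6% and 31.4% of all genes), and their summed level had a median of 595 CPM in nitrogen deficiency against 446 CPM in the control. Their part in the members' changes was not tested. Of the 6 leaf markers 4 were lower and 2 higher in nitrogen deficiency (31.4% and 36.6% of all genes). Their median log2 fold change was -0.55, and their part was not tested either.

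The accessions differed in these genes under control supply too. The sequence comparisons above used TAIR10.1 alone, and whether reads of all accessions mapped equally well was not tested. A test over the 5 accessions was passed by 6 of 7 genes, all but CLCA (edgeR adjusted p 0.214), where 75.6% of all genes passed, so that the members' share is near the background. Tsu-0 had the highest and Col-0 the lowest NIA1, with 247 ± 72 CPM in Tsu-0 and 89.6 ± 12.7 CPM in Col-0 (SD, n = 6 each), a log2 difference of 1.43 ± 0.25 (edgeR adjusted p 1.62e-06). In that pair 4 members were called, all higher in Tsu-0, where 33.7% of all genes were called: NIA1, UPM1 (0.76), NIR1 (0.72) and NIA2 (0.49). The call of NIA2 ended without the code term (edgeR adjusted p 0.0641), within each code (0.0551 and 0.374) and without replicates b, d or f (0.151, 0.0807 and 0.0985). Cvi-0 had the lowest NIA2, with 714 ± 228 CPM, against 1645 ± 312 CPM in Tsu-0, and 6 members were lower in Cvi-0 than in Tsu-0 (45.7% of all genes called). NLP6 was 0.53 lower in Sha than in Col-0 and 0.68 lower than in Tsu-0. Of 70 pair comparisons 28 were called, none of them for CLCA, and 10 of the 28 held in all alternatives run. Besides the 2 pairs above, the share of all genes called was 43.9% for Cvi-0 minus Sha, 43.1% for Bur-0 minus Cvi-0, 42.9% for Cvi-0 minus Col-0, 36.8% for Bur-0 minus Col-0 and 35% for Sha minus Col-0. It was 31.8% for Bur-0 minus Sha, where no member was called, 30.8% for Sha minus Tsu-0 and 29.3% for Bur-0 minus Tsu-0. In drought 5 of 7 genes differed between accessions (70.4% of all genes), in nitrogen deficiency and in combined stress all 7 (75.7% and 77.7%).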

How the data were processed

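Stranded mRNA libraries (TruSeq) of rosettes were sequenced, per the labels' protocols. The deposited values are raw read counts per gene, not normalized by the authors. Per the submitters' processing notes reads were handled with Trimmomatic 0.36 and HISAT2. No source names the tool that counted reads, whether it used strand, or the build. Counts were fitted with edgeR 4.0.16 in R 4.3.3 (TMM scaling, quasi-likelihood test) in 1 model of 20 groups plus the code in the titles, after a filter on low counts that kept 20025 of 32833 genes, 4657 of which had no count. Benjamini-Hochberg adjustment ran over all genes tested and the threshold was 0.05. CPM were computed with TMM scaling. Ratios (added value 0.5) and correlations used permutation tests with scipy 1.17.1. DESeq2 1.42.0 and limma 3.58.1 served as alternatives, with other scalings, filters, codes and left-out libraries. The model was tested on simulated data. The members and the 11 lists were chosen with earlier results of these data known. All 7 members were named, with at most 3 genes per list and comparison by lowest adjusted p, except that the NLP, CLC and molybdenum cofactor lists could be named in full.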

Additional observations from a re-analysis of the deposited data

Results flagged for a closer look

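Dixon's test was applied to 140 sets of libraries (7 genes in 20 groups) and 13 held a library that stood apart, where chance gives about 1 in 20. Of these, 4 belonged to replicate f of nitrogen-deficient Sha, which was high in NIA1 (119.8 CPM, the others 29.2 to 50.5), NIA2 (1186, the others 424 to 652), UPM1 (135, the others 52.4 to 80.7) and CLCA (17.6, the others 6.97 to 10.4). In Tsu-0 under combined stress, replicate e was high in NIA1 (167.6 CPM, the others 63.2 to 97.0), NIR1 (712.9, the others 263 to 424) and UPM1 (98.51, the others 57.6 to 62.8). In nitrogen-deficient Col-0, replicate e was high in NIA2 (1076 CPM, the others 456 to 638) and NIR1 (588.8, the others 248 to 343). UPM1 was low in replicate c of drought Bur-0 (111.9 CPM, the others 137 to 150.5) and in replicate c of Bur-0 under combined stress (67.56, the others 79.1 to 85.4). NLP6 was low in replicate f of drought Cvi-0 (12.79 CPM, the others 15.7 to 17.2) and high in replicate a of drought Col-0 (22.1, the others 18.71 to 19.98).

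The effect of a stress differed between accessions in 12 of the 21 interaction tests of members. For nitrogen deficiency the edgeR adjusted p was 5.97e-07 for NIA1, 1.7e-08 for NIA2, 8.59e-07 for NIR1, 2.87e-08 for UPM1, 0.0426 for CLCA and 0.0406 for NLP7. For combined stress the edgeR adjusted p was 0.000404 for NIA1, 8.93e-05 for NIA2, 5.24e-05 for NIR1, 1.36e-05 for UPM1, 0.000511 for CLCA and 0.0467 for NLP7. Of these 12 calls 6 held in all alternatives run. For nitrogen deficiency that of CLCA ended in 10 of 22, that of NLP7 in 9, and those of NIA1, NIA2 and NIR1 in 1. For combined stress that of NLP7 ended in 12 of 22, with an edgeR adjusted p of up to 0.247.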

How the results depend on the processing

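Over 6657 values of member tests recomputed under the alternatives, 6358 stayed on their side of the threshold, 190 lost a call, 108 gained one and 1 changed sign. That 1 was NLP6 in Cvi-0 minus Col-0 in the control, 0.058 with the P3ID33 libraries (edgeR adjusted p 0.825) against -0.31 with all. In drought 1 of 7 members (NIA1) was called in place of 0 with DESeq2, without the 5 libraries that stood apart, with the length slope as a term, without replicate f of the Bur-0 control, and without 3 libraries (Sha W+N- f, Tsu-0 W-N- e and Col-0 W+N- e), an alternative chosen after seeing the data. Within accessions 1 drought effect was called in place of 0 with each accession fitted alone and with the length slope. With the P3ID33 libraries alone, combined stress against nitrogen deficiency gave 14 member calls of 35 in place of 26, and interactions 6 of 21 in place of 12. Genes called over the whole table in drought were 2318 in P3ID33 and 2456 in P3ID34 against 4737 with all libraries. They were 4848 in P3ID33 against 8168 for combined stress minus nitrogen deficiency, and 6074 in P3ID34 against 9221 for combined stress minus drought. For non-additivity they were 3007 and 3658 against 6041. The cause was not tested, though each code holds fewer libraries. With the length slope taken out, 15 of 35 correlations were called. The sign turned for NIA2 and NLP6 (-0.038, permutation adjusted p 0.844), CLCA and NLP6 (-0.115, 0.429), NLP6 and NLP7 (-0.021, 0.888), NIA1 and CCA1 (-0.357, 0.0106) and NIR1 and CCA1 (-0.220, 0.043).

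Leaving out 1 replicate letter at a time gave 8 to 15 called ratios in place of 14, 9 to 12 interactions in place of 12, 26 to 31 nitrogen deficiency effects within accessions in place of 30, and 19 to 29 for combined stress against nitrogen deficiency in place of 26. For the ratios a left-out letter also raised the smallest p that the exact test could give. Replicate letters did not pair the libraries: of 177 same-letter pairs 48 had a correlation over 0.1, and the median was -0.007. With the letter as a block, 3 member calls were gained and none lost, and members called were 0 in drought, 6 in nitrogen deficiency and 5 in combined stress, with 31 within-accession nitrogen deficiency effects. Depth limited no member, the lowest count being 62.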
